A study of Mus musculus with 18 samples.

Results

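The genes described here are 9 genes of heat-producing (brown and beige) fat cells, chosen by name: Ucp1, Cidea, Ppargc1a, Dio2, Cox7a1, Cox8b, Prdm16, Adrb3 and Adrb1. All 9 of 9 were found among the 24091 gene symbols of the epididymal fat table and among the 51826 gene identifiers of the inguinal fat table. RNA was sequenced from white fat of C57BL/6 mice in 6 groups with 3 libraries each. Control mice were kept on 12 h of light and 12 h of dark. Shiftwork mice had that cycle on 4 days of each week and the reversed cycle on the other 3, and both schedules lasted 24 weeks. Epididymal white adipose tissue (eWAT, a visceral depot) was collected from control and shiftwork mice at ZT3, which the labels equate with 8 AM, and at ZT12, equated with 5 PM, the hour at which the regular light period ends. Inguinal white adipose tissue (iWAT, a subcutaneous depot) was collected from both schedules at ZT3 only, as labelled. Of the 6 iWAT libraries, 3 control and 1 shiftwork library carry code numbers that eWAT libraries of the same schedule labelled ZT12 also carry, and the labels do not say whether these came from the same animals. The labels give no genetic change in any group, and do not say on which day of the weekly rotation the shiftwork mice were sampled or whether the libraries of a group came from separate animals. The p-values therefore measure spread between samples, which may in part be technical.

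Brown and beige adipocytes release heat when norepinephrine from sympathetic nerves acts on beta-adrenergic receptors, which raises cAMP, starts lipolysis and switches on transcription through cAMP-responsive factors and the coactivator PGC-1alpha (Ppargc1a). The heat comes mainly from UCP1, a protein of the inner mitochondrial membrane that lets protons back into the matrix without making ATP, and it is supported by type 2 deiodinase (Dio2), which activates thyroid hormone inside the cell. Inguinal fat of mice readily forms beige adipocytes, whereas epididymal fat of mice forms few.

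Promoter sequences are shown for Dio2, the member with the clearest difference between groups, and for Ppargc1a, since both genes are known to respond to cAMP. A RefSeq promoter (GRCm38.p6) was matched for 7 of the 9 members. The 250 bases before the annotated start were searched on both strands for the full cAMP response element TGACGTCA, for the shorter core TGACGT, which reads ACGTCA on the opposite strand and lies inside the full element, and for the E-box CACGTG. The full element was present in Dio2 alone among the 7 members, 95 bases before the start, and in 508 of 32851 promoters (1.55%). The core was present in Dio2 and, 50 bases before the start, in Ppargc1a, and in 2125 promoters (6.47%). The E-box letters were found in none of the 7 and in 1978 promoters (6.02%). A match describes the letters only and is no evidence of binding. The sequences run 5′ to 3′ on the gene's strand, with the matched letters in capitals: Dio2 at chr12:90739039-90739288 (minus strand) and Ppargc1a at chr5:51567726-51567975 (minus strand).
Dio2: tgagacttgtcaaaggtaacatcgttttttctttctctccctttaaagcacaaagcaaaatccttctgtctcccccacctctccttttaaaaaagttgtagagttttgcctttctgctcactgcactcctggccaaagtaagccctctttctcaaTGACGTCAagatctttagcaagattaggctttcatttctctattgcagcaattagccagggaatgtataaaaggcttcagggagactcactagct
Ppargc1a: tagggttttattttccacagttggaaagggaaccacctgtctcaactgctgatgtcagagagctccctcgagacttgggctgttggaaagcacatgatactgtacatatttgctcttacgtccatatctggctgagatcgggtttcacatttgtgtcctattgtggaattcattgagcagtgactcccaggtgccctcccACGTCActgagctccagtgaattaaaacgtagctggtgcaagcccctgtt

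The eWAT libraries held between 20352008 and 72276733 counted reads, and the iWAT libraries between 28544338 and 55639501. Levels are given as CPM, reads scaled to the library total. The limit that a count of 0 allows, 3 reads, was between 0.0415 and 0.147 CPM for eWAT and between 0.0539 and 0.105 CPM for iWAT, counting error only. White adipocyte markers were high in every library (summed level of 10 genes, 11409 to 30081 CPM, none at 0). Mesothelium markers, which belong to visceral fat, summed to between 21.2 and 235 CPM in the eWAT libraries and to at most 1.58 CPM in any iWAT library. Some libraries carried transcripts of other tissues. Vas deferens and smooth muscle markers summed to 20535 and 17283 CPM in eWAT ZT3 control replicates 1 and 3, against 93.2 to 353 CPM in the other eWAT libraries. Spermatid markers summed to 2809 CPM in eWAT ZT3 shiftwork replicate 3, against at most 47.2 CPM elsewhere. Skeletal muscle markers summed to 51431 CPM in iWAT shiftwork replicate 1 and 819 CPM in replicate 2, against 61.0 to 154 CPM in the other 4 iWAT libraries, and B cell and lymph node markers to 824 and 1455 CPM in iWAT control replicates 1 and 2, against 21.4 to 86.8 CPM in the rest. Fits without the 3 eWAT libraries (edgeR, 1 control and 2 shiftwork libraries remaining at ZT3) and without either pair of iWAT libraries (limma, 1 library remaining in that group) are given beside the values they moved.

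Compared per transcript length, as RPKM (reads scaled to transcript length and library total), the adrenergic receptor Adrb3 stood far above the other members in eWAT, with a median of 128 RPKM over 12 libraries. Cox8b (11.7), Cox7a1 (7.34), Cidea (2.88), Adrb1 (2.0), Prdm16 (1.49), Ppargc1a (0.825), Dio2 (0.429) and Ucp1 (0.0285) followed by median RPKM. In iWAT the median of 6 libraries was highest for Cox8b (59.2 RPKM), with Adrb3 next (54.7), then Cidea (16.1), Cox7a1 (7.11), Adrb1 (4.43), Prdm16 (3.84), Ucp1 (1.44), Ppargc1a (1.15) and Dio2 (0.194). The ranges of Cox8b and Adrb3 overlapped in iWAT (39.3 to 133 and 23.8 to 158 RPKM), as did most neighbours in either order, while Adrb3 in eWAT (41.4 to 224 RPKM) did not overlap with Cox8b (6.26 to 24.6 RPKM). Set side by side, 3 members had every iWAT library above every eWAT library: Cidea (at least 6.44 against at most 5.06 RPKM), Cox8b (at least 39.3 against at most 24.6 RPKM) and Prdm16 (at least 2.90 against at most 2.12 RPKM). The same held for 3.04% of the 14602 genes compared, and the reverse held for 18.2% of them and for 0 members. The depots came in separate tables with different gene models and normalization, so these levels were not tested against each other.

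**Figure D1:**
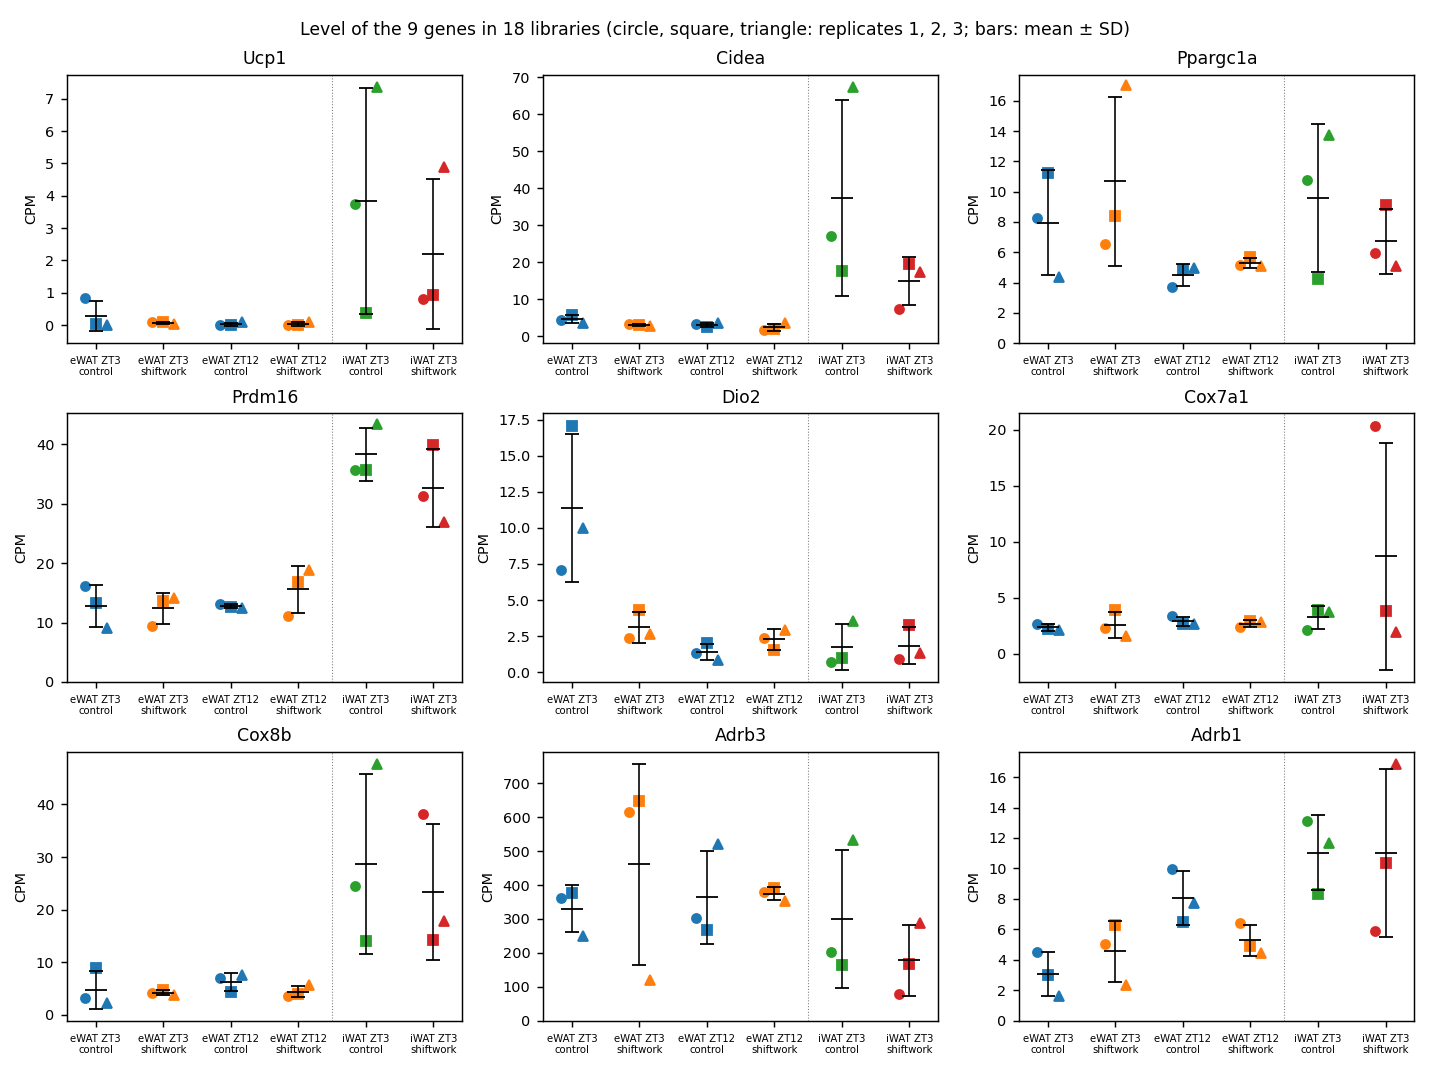
Level of each of the 9 genes in all 18 libraries, in CPM (y axis, a separate scale for each gene), by depot, time and schedule (x axis). Points are libraries and black bars the mean ± SD of 3, so that a bar reaching below 0 shows a spread larger than the mean. Dio2 in eWAT was highest in the ZT3 control libraries (7.08 to 17.1 CPM), Ucp1 was near 0 in eWAT, and Cox7a1 was high in iWAT shiftwork replicate 1 alone.

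Across the 6 comparisons, 1 member passed the test, an adjusted p under 0.05 over all genes tested. Dio2 was lower at ZT12 than at ZT3 in control eWAT, where 3.69% of 15141 genes passed, 2.93% as higher and 0.766% as lower. At an unadjusted p under 0.05 the members there numbered 2 of 8, against 22.4% of all genes. In eWAT 8 of the 9 members could be tested, and 0 of these 8 passed for shiftwork against control at ZT3, for shiftwork against control at ZT12, for ZT12 against ZT3 under shiftwork or for the interaction of schedule and time. edgeR called 0.0% of all genes in each of those comparisons. At an unadjusted p under 0.05 the counts were 1, 0, 1 and 1 of 8 in that order, against 18.8%, 2.34%, 16.3% and 10.1% of all genes. DESeq2 called 1, 0, 0 and 1 of the 8, against 4.15%, 0.0462%, 1.9% and 1.25% of all genes, and 2 of the 8 between times in controls, against 14.3%. In iWAT 9 members were tested with limma and 0 passed, with 0 at an unadjusted p under 0.05 (6.68% of all genes), 0 by DESeq2 on recovered reads (2.75% of 16159 genes) and 0 by edgeR on them, and limma called 0.0% of 16387 genes.

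The libraries of the groups compared did not overlap in CPM for 2 of the 8 members between schedules at ZT3 (Dio2 and Cidea, both lower under shiftwork), where 10.6% of all genes did not overlap. The corresponding counts were 2 between schedules at ZT12 (Ppargc1a higher and Adrb1 lower under shiftwork, 12.6% of all genes), 2 between times in control mice (Dio2 lower and Adrb1 higher at ZT12, 30.9% of all genes) and 1 between times under shiftwork (Ppargc1a lower at ZT12, 15.8% of all genes). In iWAT 0 of 9 members were free of overlap, against 10.7% of all genes. The median log2 fold change of the tested members was 0.06, -0.07, 0.11 and -0.14 in the 4 eWAT comparisons in that order and -0.11 in iWAT, beside 0.06, 0.00, -0.01, -0.03 and 0.02 over all genes. For the interaction the median was -0.24, beside -0.07 over all genes, with 3 of 8 members above 0 and 5 below. The members fell on both sides of 0 in each of the 6 comparisons.

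**Figure D2:**
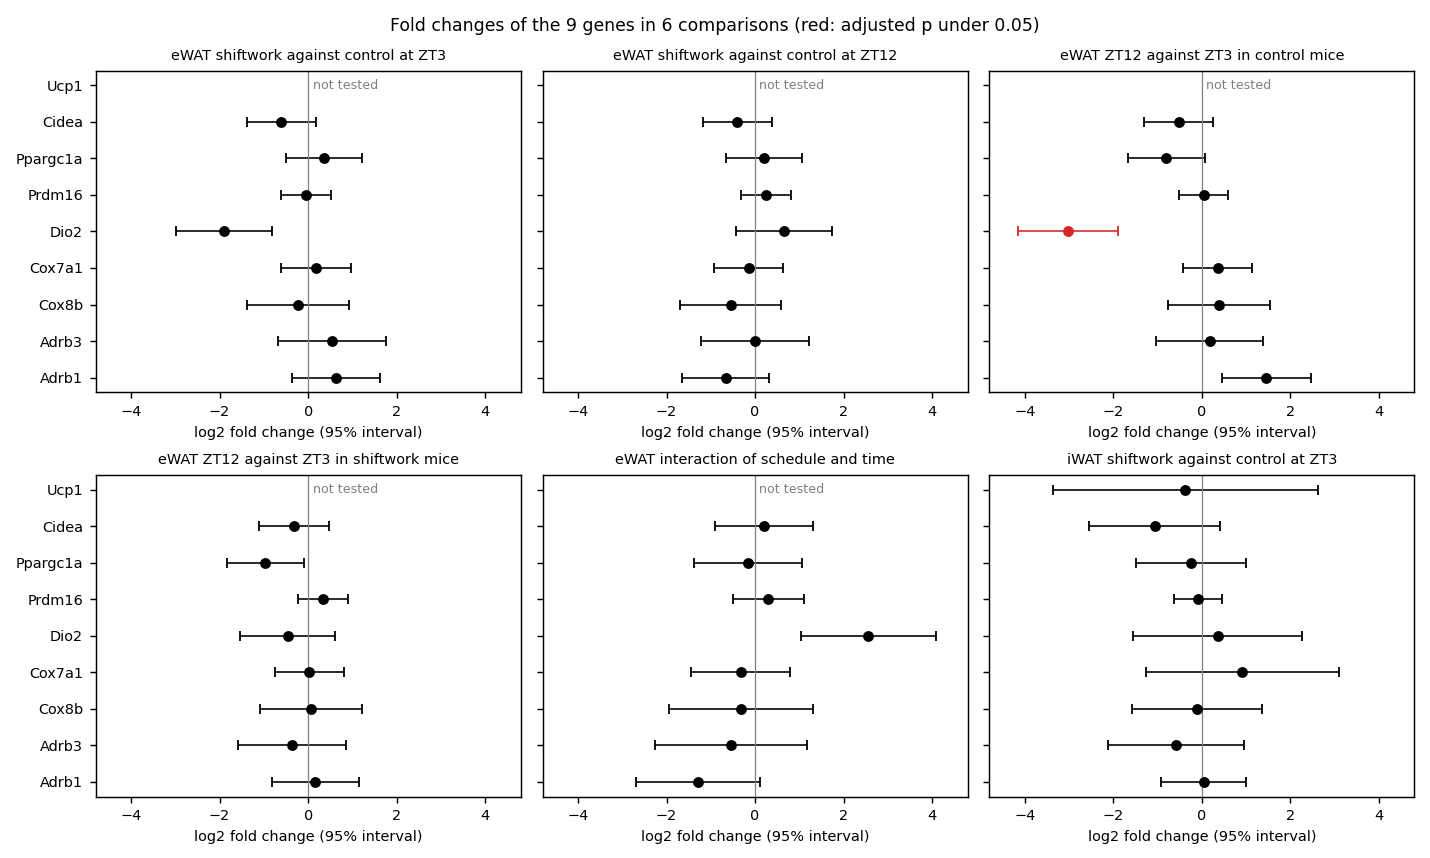
Log2 fold change (x axis) of each member (y axis) with its 95% interval in the 6 comparisons, the second-named condition being the reference. Dio2 between times in control eWAT, in red, was the single value past an adjusted p of 0.05. Ucp1 had too few eWAT reads to be tested, and the iWAT intervals were wide.

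Dio2 (ENSMUSG00000007682.6, chr12:90724552-90738438 in the deposited annotation, mm10/GRCm38, minus strand; RefSeq places the start used for its promoter upstream of that end) encodes the deiodinase that converts the prohormone T4 to active T3. In eWAT of control mice at ZT3 its level was 7.08, 17.1 and 10.02 CPM in replicates 1, 2 and 3 (204 to 512 reads). At ZT12 it was 1.33, 1.995 and 0.861 CPM (19 to 43 reads). Under shiftwork it was 2.34, 4.31 and 2.64 CPM at ZT3 and 2.35, 1.51 and 2.95 CPM at ZT12. The ZT3 control libraries were thus the 3 highest of the 12, with no overlap with any other eWAT group, while the remaining 3 groups lay between 0.861 and 4.31 CPM. In these tissue samples, a lower level cannot be told apart from fewer cells that make the transcript.

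Between times in control mice Dio2 fell by 3.03 ± 0.51 (log2 fold change ± SE, edgeR quasi-likelihood test, adjusted p = 0.02), from a mean of 11.4 ± 5.15 to 1.40 ± 0.570 CPM (SD, n = 3 each). Of the 116 genes called lower at ZT12 there, 40 had a larger fall. The call did not survive the loss of single libraries in 4 of 12 cases: without ZT3 control replicate 3 the adjusted p was 0.0870, and without ZT12 control replicate 1, 2 or 3 it was 0.117, 0.0688 or 0.0608. Those 4 fits called 3, 1, 4 and 121 genes in all, in that order, against 559 with all libraries. The log2 fold change of Dio2 stayed between -3.36 and -2.53 in all 12 fits. Vas deferens transcripts were high in ZT3 control replicates 1 and 3 (Dio2 7.08 and 10.02 CPM) and summed to 112 CPM in replicate 2 (Dio2 17.1 CPM), and their part in the Dio2 level was not tested. With both of these libraries and the spermatid-rich ZT3 shiftwork replicate 3 left out, the fall was 3.75 (edgeR, 1 control library remaining at ZT3, assumed to vary like the other groups).

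Between schedules at ZT3 Dio2 had a log2 fold change of -1.91 ± 0.49, which was not called (edgeR, adjusted p = 0.195), although every shiftwork library lay below every control library. DESeq2 called it (-1.92, adjusted p = 0.00787). Without the 3 libraries that carried other tissue it was -2.44 (edgeR, adjusted p = 0.125). At ZT12 the log2 fold change was 0.65 ± 0.48 (edgeR, adjusted p = 1) with overlapping groups. Between times under shiftwork it was -0.47 ± 0.48 (edgeR, adjusted p = 0.672). The difference between the time effects of the 2 schedules, the interaction, was 2.56 ± 0.68 (edgeR, adjusted p = 0.419) and was past the threshold in DESeq2 alone (2.58, adjusted p = 0.0353). Without the 3 libraries the interaction was 3.10 (edgeR, adjusted p = 0.133). The ZT3 control libraries enter the comparison between schedules at ZT3 and the interaction, as well as the comparison between times in controls. In iWAT Dio2 was 0.719, 0.942 and 3.57 CPM in controls and 0.900, 3.29 and 1.31 CPM under shiftwork, with overlapping groups and a log2 fold change of 0.36 ± 0.79 (limma, adjusted p = 0.896), which was -1.20 without the 2 lymph-node-rich control libraries (adjusted p = 0.999).

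Other genes of thyroid hormone action, 6 in all with 5 tested in eWAT and 4 in iWAT, gave 0 calls in any comparison. Between times in control eWAT their smallest p-values belonged to Slc16a10, a transporter of aromatic amino acids and thyroid hormone (0.76 ± 0.27, edgeR, adjusted p = 0.131), to Thra, a thyroid hormone receptor (-0.52 ± 0.19, adjusted p = 0.133), and to Dio3, the deiodinase that inactivates the hormone (-1.55 ± 0.68, adjusted p = 0.214). The median of the 5 was -0.14, beside -0.01 over all genes. None of the 3 named genes was thus called alongside Dio2.

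Ucp1 (ENSMUSG00000031710.4, chr8:83290348-83298456, plus strand), the proton carrier itself, was almost unread in eWAT. ZT3 control replicate 1, the deepest library and the one with the most vas deferens and smooth muscle transcripts (20535 CPM), held 60 reads (0.830 CPM), and the other 11 held 0 to 2 reads each. The part of that tissue in the 60 reads was not tested. That library alone rose above the 3-read limit, and all other eWAT levels were under it, so no fold change is given. In iWAT the level was 3.76, 0.384 and 7.37 CPM in control replicates 1, 2 and 3 (209, 11 and 227 reads). Under shiftwork it was 0.800, 0.946 and 4.89 CPM (24, 27 and 142 reads). Each iWAT group held libraries with high and low Ucp1, the groups overlapped, and the highest library was 19.2-fold above the lowest. The log2 fold change of shiftwork against control was -0.37 ± 1.24 with a 95% interval from -3.37 to 2.62 (limma, adjusted p = 0.932), so that neither a large rise nor a large fall could be resolved with these libraries. It was -2.25 without the 2 lymph-node-rich control libraries (adjusted p = 0.999) and 1.24 without the 2 muscle-rich shiftwork libraries (adjusted p = 0.973).

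Cidea, which encodes a lipid droplet protein abundant in brown fat, was well above the read limit in both depots. In control eWAT at ZT3 it was 4.50, 5.86 and 3.59 CPM, and under shiftwork 3.42, 3.06 and 2.69 CPM. At ZT12 it was 3.26, 2.64 and 3.63 CPM in controls and 1.84, 1.98 and 3.60 CPM under shiftwork. The ZT3 groups did not overlap, by a narrow margin, and the ZT12 groups did. The log2 fold change of shiftwork against control was -0.61 ± 0.35 at ZT3 (edgeR, adjusted p = 0.375) and -0.40 ± 0.35 at ZT12 (adjusted p = 1), neither called. Without the 3 libraries that carried other tissue the ZT3 value was -0.93 (edgeR, adjusted p = 0.368).

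In iWAT Cidea was 27.2, 17.6 and 67.4 CPM in controls and 7.47, 19.7 and 17.5 CPM under shiftwork, means of 37.4 ± 26.4 and 14.9 ± 6.5 CPM (SD, n = 3 each). Control replicate 3 was far above the rest and control replicate 2 lay within the shiftwork range. The log2 fold change was -1.07 ± 0.61 (limma, adjusted p = 0.688), -0.44 without control replicate 3 (adjusted p = 0.600) and -2.33 without control replicates 1 and 2 (adjusted p = 0.999). In the authors' deposited table Cidea is marked as down, with a log2 fold change of -1.11, p = 0.0429 and an adjusted p of 0.569. That table holds 0 members with an adjusted p under 0.05, against 426 of the 29819 genes for which it gives one.

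Ppargc1a (ENSMUSG00000029167.13, chr5:51454249-51567725, minus strand) encodes the coactivator that drives mitochondrial biogenesis. In eWAT at ZT3 it was 8.26, 11.2 and 4.37 CPM in controls and 6.57, 8.38 and 17.1 CPM under shiftwork. At ZT12 it was 3.68, 4.83 and 4.99 CPM in controls and 5.16, 5.69 and 5.10 CPM under shiftwork. Under shiftwork every ZT12 library lay below every ZT3 library, and in controls ZT3 replicate 3 fell within the ZT12 range. The log2 fold change between times was -0.80 ± 0.39 in controls (edgeR, adjusted p = 0.259) and -0.97 ± 0.39 under shiftwork (adjusted p = 0.284). At ZT12 the shiftwork libraries were all above the controls, with a log2 fold change of 0.20 ± 0.39 (edgeR, adjusted p = 1).

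The highest Ppargc1a level of the 12 was in ZT3 shiftwork replicate 3, the library with spermatid transcripts. The lowest of ZT3 was in control replicate 3, a library with vas deferens and smooth muscle transcripts (17283 CPM). Control replicate 1, with more of these transcripts (20535 CPM), had 8.26 CPM of Ppargc1a. The part of other tissue in these levels was not tested. Without the 3 libraries that carried other tissue, Ppargc1a fell by 1.46 between times in controls (edgeR, 1 control library remaining at ZT3). That fit moved Ppargc1a past the threshold, but its ZT3 control level then rested on 1 library. Under shiftwork the log2 fold change of Ppargc1a between times was -0.59 without these 3 libraries. Its difference between schedules at ZT3 changed from 0.36 ± 0.38 with all libraries to -0.66 without these 3 (edgeR, adjusted p = 0.653 and 0.293). The direction between schedules at ZT3 and the size of the fall in controls thus depended on which libraries were kept. In iWAT the level was 10.7, 4.22 and 13.8 CPM in controls and 5.93, 9.14 and 5.06 CPM under shiftwork, overlapping (log2 fold change -0.25 ± 0.52, limma, adjusted p = 0.888). Ppargc1a is also a gene of oxidative skeletal muscle. The muscle-rich iWAT shiftwork replicate 1 (5.93 CPM) had less of it than 3 other libraries, and the part of muscle in its level was not tested.

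Prdm16 (ENSMUSG00000039410.16, chr4:154316125-154636873, minus strand), a transcription factor that specifies brown and beige adipocytes, varied least of the members in both depots. In eWAT it was 16.1, 13.3 and 9.04 CPM at ZT3 in controls, 9.41, 13.7 and 14.1 CPM at ZT3 under shiftwork, 13.1, 12.6 and 12.5 CPM at ZT12 in controls and 11.1, 16.9 and 18.8 CPM at ZT12 under shiftwork. All 4 ranges overlapped or were contained in each other. The log2 fold changes of the 4 pairwise comparisons ran from -0.05 to 0.34 and none was called. In iWAT it was 35.7, 35.8 and 43.5 CPM in controls and 31.3, 39.9 and 27.0 CPM under shiftwork, a log2 fold change of -0.10 ± 0.22 with a 95% interval from -0.64 to 0.44 (limma, adjusted p = 0.901). This was the narrowest interval among the members in iWAT.

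Cox7a1 and Cox8b encode forms of cytochrome c oxidase subunits found in heart, skeletal muscle and brown fat, beside the widely expressed Cox7a2 and Cox8a. Cox7a1 (ENSMUSG00000074218.3, chr7:30184171-30186030, plus strand) ranged from 1.61 to 3.89 CPM over all 12 eWAT libraries, and all 4 groups overlapped. In iWAT it was 2.08, 3.87 and 3.76 CPM in controls and 20.4, 3.78 and 1.96 CPM under shiftwork. The value of 20.4 CPM belonged to shiftwork replicate 1, the library in which Ckm, muscle creatine kinase, stood at 8186 CPM against 7.46 to 127 CPM in the other 5. The log2 fold change of shiftwork against control was 0.91 ± 0.91 (limma, adjusted p = 0.761), and -0.10 without that library (adjusted p = 0.998). The higher mean under shiftwork thus rested on 1 library rich in skeletal muscle transcripts.

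Cox8b (ENSMUSG00000025488.9, chr7:140898942-140900446, minus strand) was 3.13, 8.88 and 2.26 CPM at ZT3 in control eWAT and 4.14, 4.68 and 3.71 CPM under shiftwork. At ZT12 it was 6.90, 4.31 and 7.61 CPM in controls and 3.59, 4.00 and 5.61 CPM under shiftwork. None of the 4 pairwise comparisons was called, and all groups overlapped. In iWAT it was 24.5, 14.1 and 47.6 CPM in controls and 38.1, 14.2 and 17.9 CPM under shiftwork. The highest library was control replicate 3 and the next was the muscle-rich shiftwork replicate 1, so both groups spanned a wide range (log2 fold change -0.11 ± 0.61, limma, adjusted p = 0.961). Without shiftwork replicate 1 the value was -0.58 (adjusted p = 0.994), and without control replicate 3 it was 0.43 (adjusted p = 0.683).

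As a share of both forms per transcript length, Cox7a1 made up 4.97 ± 0.773% of Cox7a1 plus Cox7a2 in eWAT of ZT3 controls, and the other eWAT groups averaged 5.23 to 7.17%. In iWAT the share was 4.44 to 7.42% in controls and 3.96 to 29.1% under shiftwork, with 29.1% in replicate 1. Cox8b made up 5.01 to 7.15% of Cox8b plus Cox8a on average in the eWAT groups, and 25.2 ± 7.68% in iWAT controls and 23.8 ± 10.8% in iWAT under shiftwork (SD, n = 3). Every iWAT library had a larger Cox8b share (at least 14.7%) than every eWAT library (at most 8.72%), and the Cox7a1 shares of the depots overlapped. The part of muscle transcripts in these shares was not tested. Gene models differed between the tables, which affects shares of Cox7a1 in particular (0.362 kb in the eWAT table, 0.531 kb in the iWAT table).

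**Figure D3:**
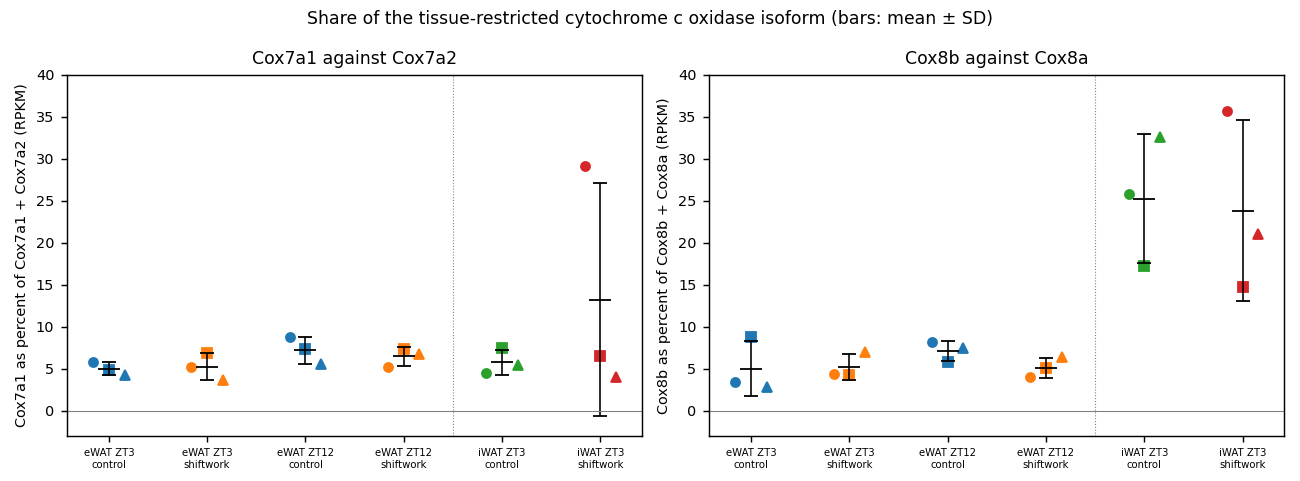
Share of Cox7a1 in Cox7a1 plus Cox7a2 (left) and of Cox8b in Cox8b plus Cox8a (right), in percent of the summed RPKM (y axis), per library in the 6 groups (x axis). Points are libraries and bars the mean ± SD of 3. Cox8b made up 14.7 to 35.7% in iWAT against 2.86 to 8.72% in eWAT, and Cox7a1 stood out in iWAT shiftwork replicate 1 alone.

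Adrb3 (ENSMUSG00000031489.15, chr8:27225776-27229588, minus strand) encodes the beta-adrenergic receptor typical of adipocytes. At ZT3 in eWAT it was 362, 378 and 251 CPM in controls and 615, 648 and 120 CPM under shiftwork. At ZT12 it was 304, 266 and 520 CPM in controls and 379, 391 and 354 CPM under shiftwork. The lowest of the 12 was ZT3 shiftwork replicate 3, which also had the lowest sum of white adipocyte markers (11409 CPM) and carried spermatid transcripts, while the other libraries of its group were the 2 highest. The groups overlapped in all comparisons, and the log2 fold change between schedules at ZT3 was 0.53 ± 0.55 (edgeR, adjusted p = 0.637), and 0.67 without the 3 libraries that carried other tissue (adjusted p = 0.441). In iWAT it was 201, 164 and 533 CPM in controls and 80.1, 167 and 287 CPM under shiftwork, again overlapping (-0.59 ± 0.64, limma, adjusted p = 0.785). That value was -1.80 without control replicates 1 and 2 (adjusted p = 0.999) and 0.26 without shiftwork replicates 1 and 2 (adjusted p = 0.996). The part of adipocyte content in these values was not tested.

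Adrb1 (ENSMUSG00000035283.4, chr19:56722372-56724862, plus strand), the beta-adrenergic receptor linked to recruitment of brown precursor cells, was 4.52, 3.02 and 1.62 CPM at ZT3 in control eWAT and 9.98, 6.50 and 7.75 CPM at ZT12. Under shiftwork it was 5.04, 6.30 and 2.35 CPM at ZT3 and 6.45, 4.94 and 4.44 CPM at ZT12. In controls every ZT12 library was above every ZT3 library, and under shiftwork the times overlapped. The log2 fold change between times in controls was 1.46 ± 0.45 and missed the threshold (edgeR, adjusted p = 0.0941). It was called by DESeq2 (1.41, adjusted p = 0.0216) and by edgeR without ZT3 shiftwork replicate 3 (1.42, adjusted p = 0.0216), a fit that called 2744 of 15377 genes. The other 11 fits with a library left out did not call it, with an adjusted p of up to 0.314 (without ZT3 control replicate 3), nor did the fit without the 3 libraries that carried other tissue (1.28, adjusted p = 0.0636). Under shiftwork the log2 fold change between times was 0.16 ± 0.44 (edgeR, adjusted p = 0.890), and the interaction of -1.30 ± 0.63 was not called (adjusted p = 0.506). At ZT12 every shiftwork library was below every control library, with a log2 fold change of -0.66 ± 0.44 (edgeR, adjusted p = 1). In iWAT Adrb1 was 13.1, 8.31 and 11.7 CPM in controls and 5.90, 10.4 and 16.9 CPM under shiftwork, overlapping.

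The iWAT libraries of the same schedule differed from one another. Control replicate 3 was the highest of the 6 for 7 of the 9 members (Ucp1, Cidea, Ppargc1a, Dio2, Cox8b, Prdm16 and Adrb3), and it was the highest for 15.7% of the 16387 genes tested. Cox7a1 was highest in shiftwork replicate 1 and Adrb1 in shiftwork replicate 3. Summed white adipocyte markers in control replicate 3 were 28002 CPM, second to shiftwork replicate 2 (30081 CPM), in which no member was highest. Control replicate 2 had the lowest sum of white adipocyte markers (14128 CPM) and the most B cell and lymph node transcripts, and it was lowest for 3 members and for 21.8% of all genes. Shiftwork replicate 1, rich in muscle transcripts, was also lowest for 3 members and for 16.2% of all genes. Their part in the levels of the members was not tested.

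**Figure D4:**
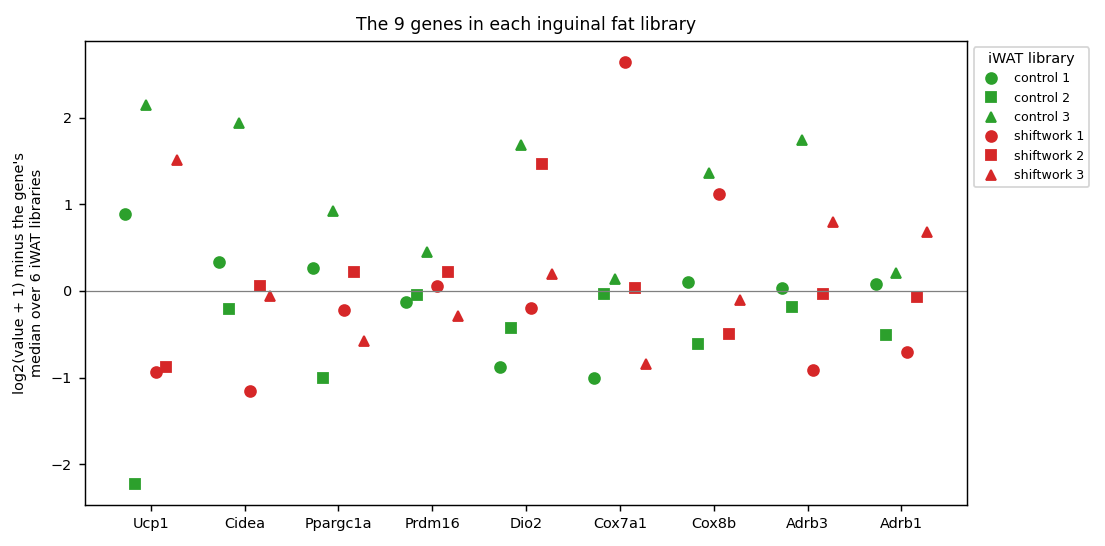
Deviation of each member from its median over the 6 iWAT libraries, as log2(value + 1) of the deposited normalized values (y axis), by gene (x axis). Green points are control and red points shiftwork libraries, and circles, squares and triangles are replicates 1, 2 and 3. Control replicate 3 was the highest point for 7 of 9 genes, and shiftwork replicate 1 stood apart for Cox7a1.

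Over the 6 iWAT libraries Ucp1 varied most closely with Adrb3 (Pearson r = 0.80, exact permutation p = 0.0472; Spearman rho = 0.94, p = 0.0167) and Adrb1 (r = 0.81, exact permutation p = 0.0542; rho = 0.89, p = 0.0333). With 8 relations computed, the adjusted p was 0.217 for r and 0.133 for rho for both, so that 0 of 8 passed. Without the 2 libraries farthest from the median of Ucp1 (control replicates 2 and 3), r over 4 libraries ran from -0.94 for Prdm16 to 0.86 for Adrb1, with 0.82 for Adrb3, and the exact permutation p adjusted over the 8 relations was 0.333 for each of these 3. Cidea, at r = 0.68 (exact permutation p = 0.126, adjusted p = 0.337), came next. In eWAT 0 of 8 relations passed over 12 libraries, and Ucp1 there was above the read limit in a single library.

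As a description across libraries, the genes with a mean level of at least 1 CPM whose pattern was most like that of Ucp1 over the 6 iWAT libraries were Tns2 (Pearson r = 0.99, Spearman rho = 1), 4930556M19Rik (0.98 and 1), Runx1t1 (0.97 and 1), E530011L22Rik (0.97 and 0.94) and Lurap1 (0.97 and 1), out of 14400 genes ranked. In eWAT they were Ppia (0.95 and 0.27), Prr12 (0.92 and 0.20), Zfp810 (0.89 and 0.46), Zfp324 (0.89 and 0.28) and 1300002E11Rik (0.88 and 0.36), out of 14833. Each of these 5 was highest in ZT3 control replicate 1, and the likeness there rested on that library, as the low rank correlations show. The iWAT genes were picked as the highest of 14400 over only 6 libraries. Correlations this high, rho = 1 included, can arise by chance in such a choice, and none was tested.

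Related genes were taken from lists of the thermogenic programme. Of 16 further effector genes of brown and beige fat, such as Plin5, which ties lipid droplets to mitochondria, 16 were tested in eWAT and 14 in iWAT, and 0 were called in any comparison. The smallest p-values between times in control eWAT belonged to Plin5 (1.22 ± 0.39, edgeR, adjusted p = 0.103), Ucp3, a mitochondrial carrier related to UCP1 (1.45 ± 0.54, adjusted p = 0.153), and the proton channel gene Otop1 (1.63 ± 0.69, adjusted p = 0.197). Of 14 transcription factors and coactivators, 13 were tested in each depot and 0 were called. Lhx8, a homeobox gene marking brown adipocytes, held 2, 0 and 0 reads at ZT3 and 22, 7 and 5 reads at ZT12 in control eWAT, so that no fold change is given (edgeR, adjusted p = 0.0962). Ppara, a receptor that drives fatty acid oxidation, had a log2 fold change of -0.58 ± 0.19 (edgeR, adjusted p = 0.109). All 5 repressors of the brown programme and all 6 beige surface and identity markers were likewise without a call in eWAT. The 12 genes of adrenergic and cAMP signalling gave 0 calls in either depot. In iWAT Adcy5, an adenylyl cyclase, was 204 ± 42.6 CPM in controls and 358 ± 55.3 CPM under shiftwork without overlap (0.97 ± 0.22, limma, adjusted p = 0.688). The groups there did not overlap for 10.7% of all genes. Of 7 secreted activators 6 were tested in eWAT, again with 0 calls.

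Between times in control eWAT, 3 of 76 related genes tested were called (3.95%), a share near the 3.69% of all genes called there. The 76 leave out Gyk, an effector gene held under the symbol Gk, which was tested and not called. In the other 5 comparisons the main fits called 0 genes of any kind. Ucp2, a mitochondrial carrier of the UCP family that is widely expressed, was 161, 131 and 148 CPM at ZT3 and 294, 429 and 313 CPM at ZT12, a rise of 1.28 ± 0.21 (edgeR, adjusted p = 0.0182) that was called in 8 of 12 fits with a library left out. The 2 further calls came from the 9 genes of heat-producing cycles that do not need UCP1, of which 8 were tested. Pm20d1, an enzyme that makes uncoupling N-acyl amino acids, was 13.7, 15.2 and 10.2 CPM at ZT3 and 21.2, 21.8 and 21.5 CPM at ZT12 (0.75 ± 0.17, edgeR, adjusted p = 0.0427), called in 2 of 12 such fits. Atp2a2, the calcium pump SERCA2, was 828, 348 and 690 CPM at ZT3 and 264, 291 and 217 CPM at ZT12 (-1.20 ± 0.22, edgeR, adjusted p = 0.0253), called in 5 of 12. Its 2 highest libraries were those with vas deferens and smooth muscle transcripts. With the 3 libraries that carried other tissue left out, the log2 fold change was 1.26 for Ucp2 (adjusted p = 0.0542), 0.36 for Pm20d1 (adjusted p = 0.190) and -0.57 for Atp2a2 (adjusted p = 0.0634), and none of the 3 was called.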

How the data were processed

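Single reads of 51 cycles came from mRNA libraries. Per the submitters' processing notes, the builds were mm10 and GRCm38 and the tools included STAR and HTSeq, edgeR, limma and DESeq2, with no roles given. Strand was not given in the sources used here. For eWAT the authors deposited whole-number read counts and log2 FPKM values. The iWAT values deposited as read counts are normalized signal: every value is a whole multiple of its library's step, and whole reads were recovered for 100% of values (tolerance 1e-06). The authors also deposited iWAT RPKM and, per the file headers, a log2 fold change, a p-value and an adjusted p-value per gene. CPM and eWAT RPKM were computed here.

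eWAT counts were tested with edgeR 4.0.16 (quasi-likelihood, TMM, filterByExpr with minimum count 10 and minimum total 15, 12 libraries in 4 groups, 15141 genes). iWAT values were tested with limma 3.58.1 (trend, robust) on log2(value + 1), at least 10 in at least 3 libraries (16387 genes), a scale that understates changes of low genes. The SE of an edgeR fold change is its size divided by sqrt(F). P-values were adjusted by Benjamini-Hochberg over all genes tested, and intervals are at 95%. The main edgeR and limma fits, and DESeq2 on eWAT, were checked on simulated counts, and the other fits were not. The simulated libraries had the same spread for every gene and no other tissue. The check therefore does not show how the fits behave on these libraries. Alternatives were DESeq2 1.42.0, no filter, other pseudocounts, the deposited log2 FPKM and RPKM, the recovered reads, a replicate block and libraries left out.

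Members and lists were chosen with earlier results of these data known. All 9 members are named, and of the other lists every called gene or up to 3 genes with the smallest p. Replicate numbers paired the libraries of ZT12 control and ZT12 shiftwork by the correlation of their deviations from group means (0.31, 0.13 and 0.20), where the replicate block changed no call, and in no other comparison (-0.44 to 0.17).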

Additional observations from a re-analysis of the deposited data

How the results depend on the processing

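Of 815 recomputed fold changes of members, 741 kept their direction and their side of the threshold, 4 lost a call, 5 gained one and 65 turned in sign, of values that were not called. DESeq2 in place of edgeR called 1 member (Dio2) between schedules at ZT3, 2 (Dio2 and Adrb1) between times in controls and 1 (Dio2) for the interaction. It called 2168 genes in all between times in controls, against 559, and 629, 7, 287 and 189 against 0 between schedules at ZT3, between schedules at ZT12, between times under shiftwork and for the interaction. Leaving out single libraries gave 0 to 2 members called between times in controls and 1 to 2744 genes in all. With the 3 ZT3 libraries with other tissue left out, 1 control library remained at ZT3. Only log2 fold changes are given for it here, -3.75 for Dio2 and -1.46 for Ppargc1a. Dio2 kept its call in that fit and Ppargc1a gained 1 of the 5 gained calls, but both rest on that 1 control library. In the other 5 comparisons leaving out libraries gave 0 members, with up to 403 genes in all between schedules at ZT3 and up to 186 for the interaction. No filter on low counts called 320 genes between times in controls, with Dio2 among them. In iWAT DESeq2 on recovered reads called 445 genes, and limma without control replicate 3 called 360, with 0 members in either. The replicate block left all member calls as they were: Dio2 between times in controls fell by 2.98 with it (adjusted p = 0.0315), while all genes called there went from 559 to 298. Replicate numbers were each library's best match in 6 of 6 libraries for the 2 ZT12 groups, in 3 of 6 for the 2 ZT3 groups of eWAT, in 2 of 6 in iWAT and in 0 of 6 between times. Depth limits Ucp1 in eWAT, with at most 2 reads in 11 of 12 libraries, and 19 to 43 reads limit Dio2 at ZT12 in controls.

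Values that turned in sign follow, as log2 fold changes, none of them called with all libraries, and the cause was not tested. Without the 3 libraries with other tissue, the values were -0.66 for Ppargc1a between schedules at ZT3, 0.0027 for Adrb3 between schedules at ZT12, -0.64, -0.20 and -0.19 for Cox8b, Prdm16 and Adrb3 between times in controls, -0.29, -0.10 and -0.21 for Cox7a1, Cox8b and Adrb1 between times under shiftwork, and 0.86 and 0.53 for Ppargc1a and Cox8b for the interaction. With DESeq2, Prdm16 between times in controls was -0.0029. With limma on the deposited log2 FPKM, Cox8b was 0.077 between schedules at ZT3, and Adrb3 was 0.087 between schedules at ZT12 and 0.037 between times under shiftwork. With the deposited RPKM, Adrb1 in iWAT was -0.097. In iWAT, in 2 fits chosen after seeing the data, Dio2 was -1.20 and Adrb1 -0.24 without the 2 lymph-node-rich control libraries, and Ucp1 was 1.24, Cox7a1 -0.54 and Adrb3 0.26 without the 2 muscle-rich shiftwork libraries. With single libraries left out, further values changed sign, the ranges being as follows. Between schedules at ZT3 they were -0.041 to 0.78 for Ppargc1a, -0.29 to 0.47 for Cox7a1, -0.58 to 0.70 for Cox8b, -0.26 to 0.083 for Prdm16. Between schedules at ZT12 they were -0.19 to 0.36 for Adrb3. Between times in controls they were -0.19 to 0.15 for Prdm16, -0.20 to 0.36 for Adrb3. Between times under shiftwork they were -0.28 to 0.48 for Cox7a1, -0.17 to 0.21 for Cox8b, -0.20 to 0.49 for Adrb1. For the interaction they were -0.17 to 0.39 for Cidea, -0.58 to 0.24 for Ppargc1a, -0.61 to 0.15 for Cox7a1, -1.25 to 0.035 for Cox8b. In iWAT they were -1.62 to 0.57 for Ucp1, -0.78 to 0.18 for Ppargc1a, -0.14 to 1.14 for Dio2, -0.10 to 1.64 for Cox7a1, -0.58 to 0.43 for Cox8b, -0.21 to 0.084 for Prdm16, -1.01 to 0.018 for Adrb3, -0.31 to 0.38 for Adrb1.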
